A study of Mus musculus with 111 samples.

Results

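The enzymes that add and remove acetyl and methyl groups on histone lysines were followed by their RNA in single mouse 2-cell embryos. The 60 genes were taken by symbol from the deposited table. They comprise 8 lysine acetyltransferases (Kat), 11 zinc-dependent deacetylases (Hdac), 7 NAD-dependent sirtuins (Sirt), 8 lysine methyltransferases of the Kmt2 and Kmt5 families, 8 genes of the Setd series and 18 lysine demethylases (Kdm). They are 60 of the 36134 genes in the table, and their counts were summed over 518 annotated transcripts. Of the 60, 56 passed the filter on low counts. Hdac3, Hdac7, Hdac11 and Setd7 did not and were not tested over all embryos.

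The embryos were of strain B6129F1. Oocytes at the germinal vesicle stage received a set of 2 siRNAs (20 µM each) against Nr5a2, a nuclear receptor, or control siRNAs. They were held for 5 h in dbcAMP, matured for 12 h, fertilized in vitro and cultured to the 2-cell stage. All oocytes also received 150 ng per µl of RNA for a fluorescent histone H2B. It was fused to rsEGFP in knockdown oocytes and to EGFP in control oocytes, so the siRNAs and the marker cannot be told apart. There were 55 knockdown and 56 control embryos: 16 and 24 in experiment 1, 16 and 7 in experiment 2, and 23 and 25 in experiment 3. Each library was 1 embryo. The p-values therefore reflect differences from embryo to embryo, and fewer cells and less RNA per cell cannot be told apart in such a library.

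Acetylation of histone tails loosens chromatin and is laid down by Kat enzymes, which act inside large complexes such as SAGA, ATAC and NuA4, while Hdac and Sirt enzymes take it off. Methylation of a lysine can mark active promoters, gene bodies or silent chromatin, depending on the residue, and is written by SET-domain enzymes and erased by the Kdm families. In the mouse the 2-cell stage is the time of the major wave of genome activation, when maternal RNA is lost and histone marks inherited from the gametes are rewritten.

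The libraries held between 1.97 and 21.4 M estimated counts (median 4.78 M), and 16330 to 19613 genes had counts. Nr5a2 itself had a lowest, median and highest level of 13.1, 47.2 and 119 CPM (counts scaled to the library's TMM-adjusted total) in knockdown embryos, against 32.0, 103 and 234 CPM in control embryos. On the log2 scale it fell by 1.17 (SE 0.12, adjusted p = 3.7e-12 in edgeR's quasi-likelihood test), and the ranges of the arms overlap. Of 26 measured 2-cell marker genes, 23 had a median of at least 1 CPM. The summed level of that list had a median of 2460 CPM in knockdown and 2662 CPM in control embryos. Oocyte markers summed to a median of 4880 CPM in knockdown and 4940 CPM in control embryos. Cumulus and granulosa markers summed to a median of 105 CPM (15.2 to 274) in knockdown and 103 CPM (26.9 to 178) in control embryos. Of these 15 genes, 9 had a median of 0 and 4 of at least 1 CPM. Sperm markers summed to a median of 26.6 CPM (8.75 to 75.5) in knockdown and 24.0 CPM (10.7 to 45.6) in control embryos. Of these 10 genes, 6 had a median of 0 and 1 of at least 1 CPM. Knockdown embryos 5 and 8 of experiment 3 stood apart, with a median Pearson's r to the other embryos over log2 CPM of 0.673 and 0.663, against 0.746 or more in the rest. Counts of called genes are given below with and without them for the main tests of knockdown, experiment and level of 2-cell transcripts.

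The first comparison was between genes of the 6 classes, on counts per kb of annotated transcript, scaled to the same sum in each embryo (level per length). The full annotated length was used, and the RNA was amplified from oligo dT primers. Uneven coverage of long transcripts, or counts placed on short ones, could shift the order of genes, and this was not tested. Over all embryos 57 of the 60 genes had a median level per length of at least 1, 37 of at least 10, 14 of at least 50 and 7 of at least 100. The 7 were Hdac1, Kdm5b, Kdm5a, Kat7, Kdm5d, Kat6b and Sirt7. Hdac11 and Hdac7 had a median of 0.

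**Figure D1:**
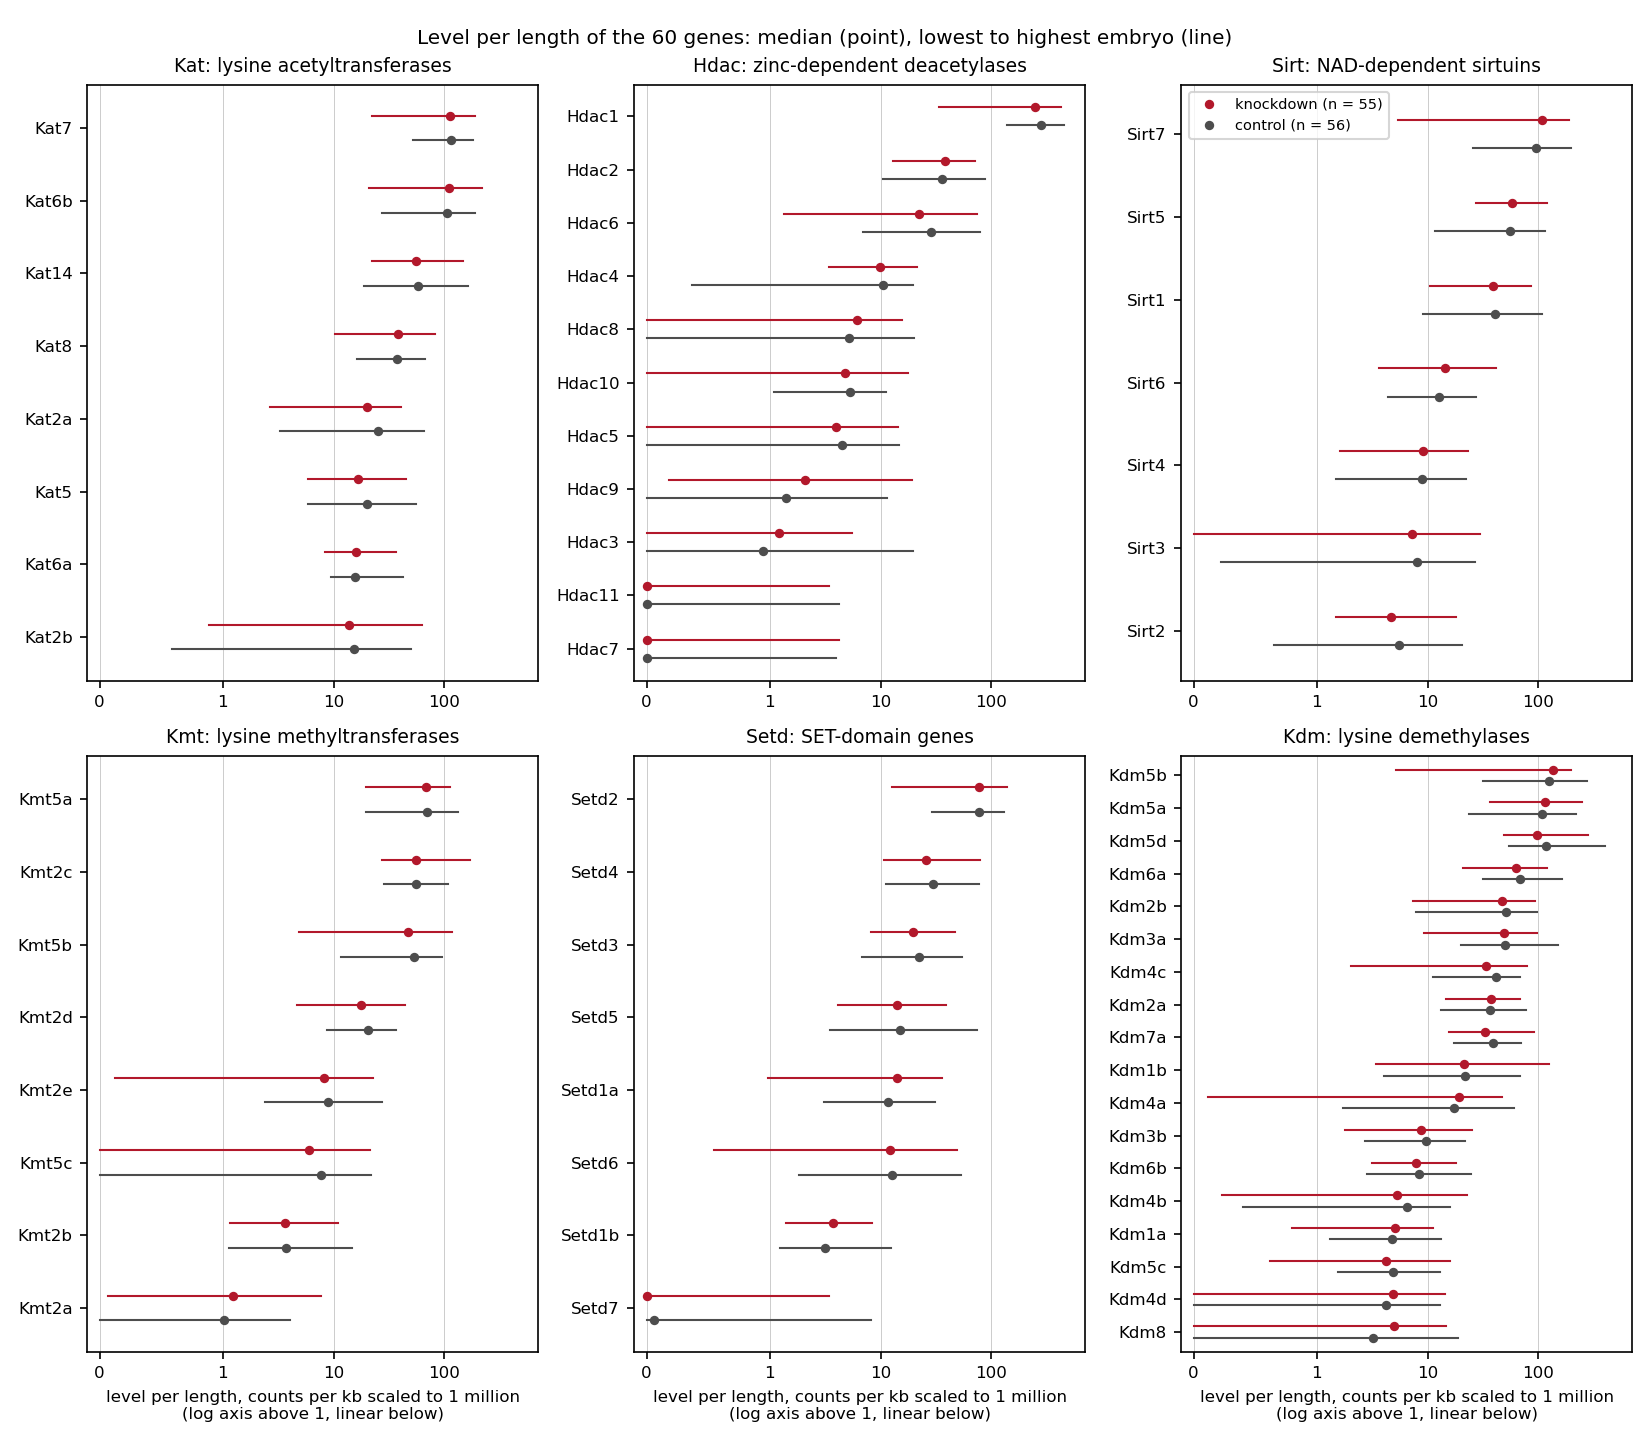
Level per length of the 60 genes by class on the horizontal axis (counts per kb scaled to the same sum in each embryo, log above 1 and linear below), with the median as a point and the lowest to highest embryo as a line, knockdown (n = 55) above control (n = 56). Hdac1 stands highest, Hdac7 and Hdac11 lie at 0, and the lines of the arms overlap for every gene.

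Among the acetyltransferases, Kat7, the catalytic subunit of the HBO1 complex, had a median level per length of 112 in knockdown and 115 in control embryos. Kat6b, the MORF acetyltransferase, had 110 in knockdown and 106 in control embryos. Kat14, a subunit of the ATAC complex, followed with 55.9 and 58.2. Kat2b, a paralogue of Kat2a that can take its place in SAGA, was the lowest of the class with 13.9 in knockdown and 15.2 in control embryos. The lowest and the highest knockdown embryo had a Kat2b level per length of 0.890 and 62.9, a range that took in the medians of 6 of the 8 Kat genes.

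The deacetylases held both the highest and the lowest of the 60 medians. Hdac1, a catalytic subunit of the Sin3, NuRD and CoREST complexes, had a median level per length of 248 in knockdown and 282 in control embryos. Its close relative Hdac2 had 38.3 in knockdown and 35.9 in control embryos. Hdac6, a mainly cytoplasmic enzyme that deacetylates tubulin, had 22.0 and 28.6. Hdac9, a class IIa enzyme, had the lowest value of the 8 tested ones, with 2.08 and 1.39. However, 44.4% of the Hdac9 counts, its leading transcript among them, have no annotated length and are missing from that level. In CPM its median was 6.74 in knockdown and 6.31 in control embryos. Hdac3, the catalytic partner of the NCoR corepressors, had 1.22 in knockdown and 0.948 in control embryos, and 15 knockdown and 8 control embryos had no count. Hdac7 had no count in 37 knockdown and 40 control embryos, and Hdac11 in 37 and 36. In the Setd series the same held for Setd7, with no count in 28 and 25. Sequence shared with other genes limits the counting of some members. Of the 31-base words of the leading Hdac1 transcript, 62.7% also occur in transcripts of 12 other genes, against a median of 0.60% over 59 of the genes. The share was over 10% in 13 of the 59, among them Setd1a with 54.6%, Setd3 with 49.4%, Sirt5 with 37.8%, Sirt3 with 27.9%, Kdm2b with 25.4% and Kat2b with 15.4%. How far this moves their levels, folds or slopes was not tested.

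Of the sirtuins, the nucleolar Sirt7 had a median level per length of 107 in knockdown and 95.2 in control embryos. The mitochondrial desuccinylase Sirt5 had 57.5 and 55.5, and Sirt1, a nuclear deacetylase, had 38.7 and 40.5. The lowest was the largely cytoplasmic Sirt2, with 4.72 in knockdown and 5.52 in control embryos.

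Among the methyltransferases, Kmt5a, which places the first methyl group on the tail of histone H4, led its class with 68.1 in knockdown and 69.9 in control embryos. Kmt2c, an MLL-family enzyme that acts at enhancers, had 55.5 in both arms, and Kmt5b, which adds further methyl groups to H4, had 46.7 and 53.0. Kmt2a, the founding MLL gene, was lowest with 1.25 in knockdown and 1.03 in control embryos. Setd2, which methylates histone H3 behind elongating RNA polymerase II, led the Setd genes with 78.0 in knockdown and 76.6 in control embryos. Setd3, known as a methyltransferase of actin rather than of histones, had 19.5 and 22.1, and Setd4 had 25.5 and 29.5. Setd1b, a catalytic subunit of a COMPASS complex, was the lowest of the 7 tested ones with 3.75 and 3.18.

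The demethylases of the Kdm5 family, which take methyl groups off the H3 lysine that marks active promoters, held the top of their class. In the mouse, Kdm5a and Kdm5b are known to remove broad domains of this mark around genome activation. Kdm5b had a median level per length of 135 in knockdown and 125 in control embryos, and Kdm5a had 114 and 109. The X-linked Kdm5c was near the bottom of the class with 4.26 and 4.84. Kdm8 was the lowest over all embryos, with 5.00 in knockdown and 3.22 in control embryos.

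For Kdm5a the level of the gene and that of its protein-coding RNA were far apart. Over all embryos 23.5% of its counts were assigned to transcripts annotated as protein coding, and its leading transcript is one annotated for nonsense-mediated decay (ENSMUST00000135802.7, 3665 bases), with 41.0% of the counts. Kmt2e had 30.0% on protein-coding transcripts and 62.7% on a decay transcript of 2061 bases, and Kmt5a had 30.2% and, on a decay transcript of 1789 bases, 60.7%. For Sirt1 the shares were 37.4% on protein-coding transcripts and 56.8% on 1 decay transcript. Setd4 was the extreme, with 9.36% of its counts on protein-coding transcripts and 65.9% on a transcript with a retained intron. In all, 9 of the 60 genes had less than 50% of their counts on protein-coding transcripts and 26 had more than 90%. The median was 85.9%. Among the 9 was Hdac9 (49.4%), with 44.4% of its counts on transcripts that GENCODE M21 does not annotate. The same shares over all genes were not counted. These shares rest on how kallisto divided reads among overlapping transcripts, and that division was not tested.

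Kdm5d lies on the Y chromosome, from 897788 to 956786 on the plus strand of GRCm38 (GENCODE M21), so embryos without a Y chromosome carry no copy of it. It was counted in all 55 knockdown and all 56 control embryos. Its lowest, median and highest levels were 222, 469 and 1665 CPM in knockdown embryos, against 232, 555 and 2081 CPM in control embryos. Of 6 other Y-linked genes, Uty, a Y-linked relative of Kdm6a, was also counted in every embryo, at 2.04 to 100.3 CPM in knockdown and 12.4 to 119.7 CPM in control embryos. The others were not: Usp9y had no count in 18 knockdown and 26 control embryos, Zfy1 in 26 and 30, Zfy2 in 24 and 29, Ddx3y in 17 and 21, and Eif2s3y in 8 and 13. Of the leading Kdm5d transcript, 898 of 7944 words of 31 bases (11.3%) also occur in transcripts of 1423 other genes. Whether reads from other genes entered the Kdm5d counts was not tested, and its level cannot be read as that of the Y-linked gene alone. Without it, the 17 other Kdm genes summed to a median of 1326 CPM in knockdown and 1330 CPM in control embryos, while all 18 summed to 1838 and 1909 CPM.

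**Figure D2:**
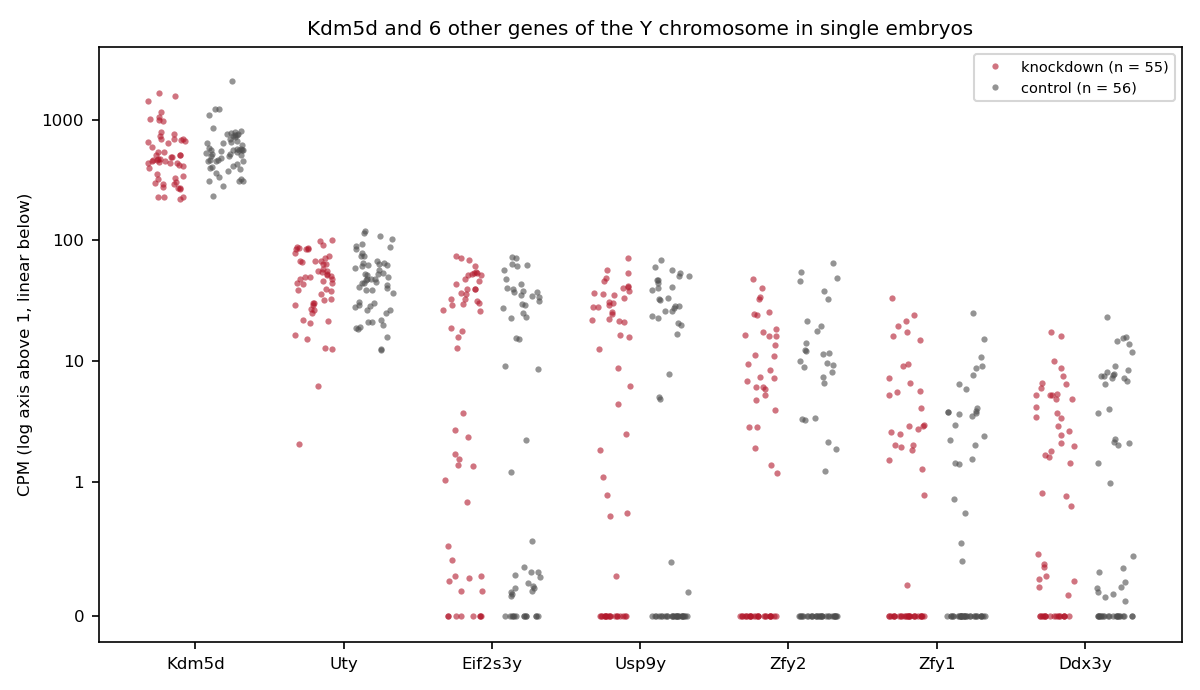
CPM in single embryos (vertical axis, log above 1 and linear below) for Kdm5d and 6 other Y-linked genes, knockdown (n = 55) left of control (n = 56), 1 point an embryo. Kdm5d lies at 222 CPM or more in every embryo, and Uty at 2.04 CPM or more, whereas the other 5 genes have embryos at 0.

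The second comparison asked whether the enzymes changed when Nr5a2 was knocked down. None of the 56 tested genes passed an adjusted p under 0.05 in the edgeR quasi-likelihood test with experiment as a factor. Over all 13448 genes tested 1.10% passed, with 63 (0.468%) lower and 85 (0.632%) higher. At an unadjusted p under 0.05 there were 5 of the 56, where 9.50% of all genes lay, so the count was near the background. DESeq2 called 1 of them and limma-voom 0, and for these tools the share over all genes is not given. Without the embryos that stood apart edgeR again called 0, against 1.04% of all genes. Of the 56, 29 lay below 0 and 27 above, and their median log2 fold change was -0.0010, beside 0.019 over all genes. The 95% intervals of all 56 lay within 2-fold in either direction, and those of 48 within 1.5-fold. The lowest end of an interval was -0.77 and the highest 0.78 on the log2 scale.

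**Figure D3:**
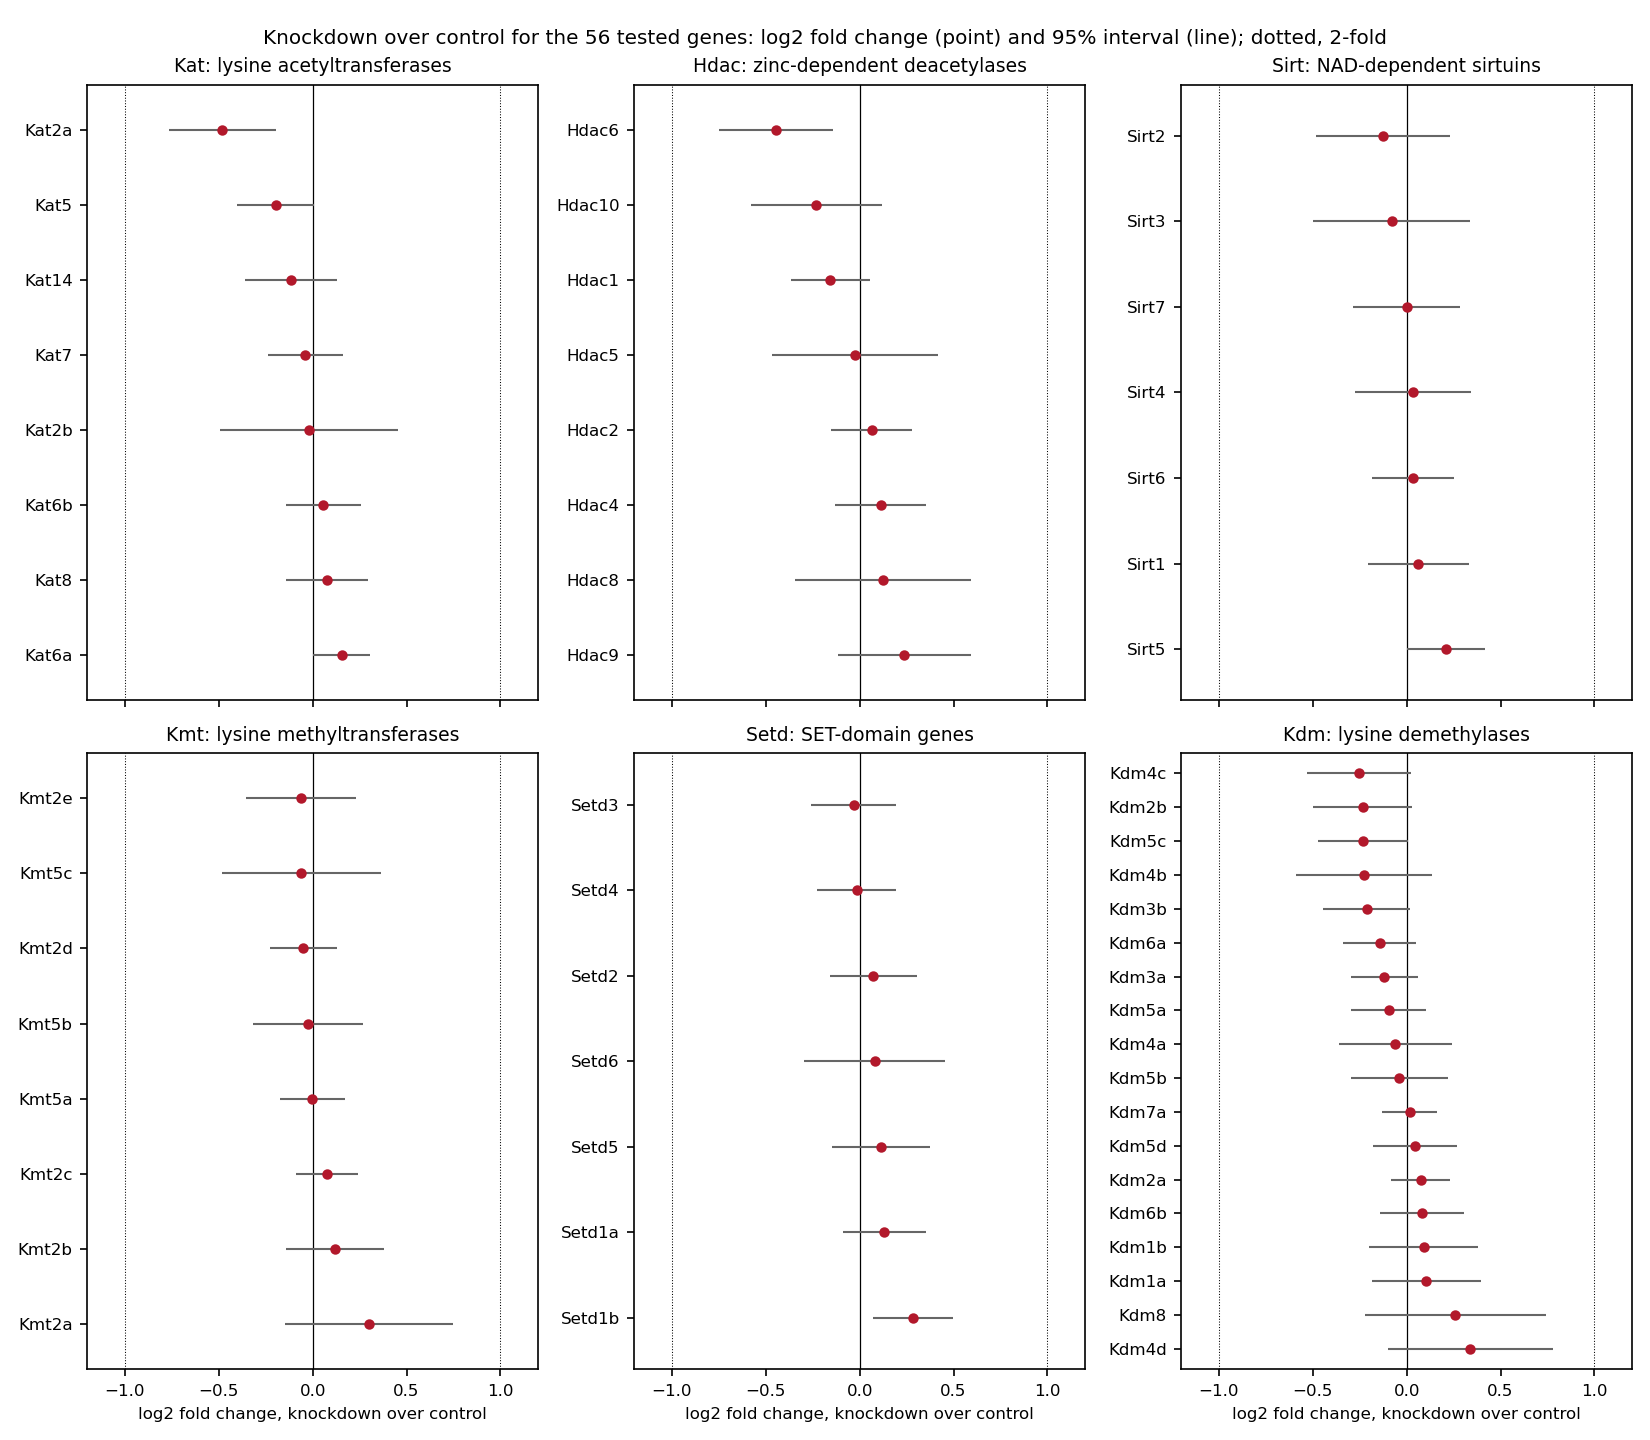
Log2 fold change of knockdown over control on the horizontal axis (point) with its 95% interval (line) for the 56 tested genes by class, dotted lines at 2-fold. All intervals lie between the dotted lines, with Kat2a at -0.48 and Hdac6 at -0.45 farthest to the left.

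By class, the summed CPM had overlapping ranges in every experiment. The acetyltransferases summed to a median of 659 CPM in knockdown and 609 in control embryos of experiment 1, to 700 and 557 in experiment 2, and to 649 and 629 in experiment 3. The deacetylases summed to 373 and 441 in experiment 1, 485 and 452 in experiment 2, and 462 and 447 in experiment 3, so the order of the arms was not the same throughout. Over all embryos Hdac1 alone had a median of 296 CPM, where its class had 442 CPM. For the Kmt genes the medians were 808 and 880, 878 and 780, and 688 and 752. For the Setd genes they were 449 and 415, 330 and 293, and 422 and 364, and for the sirtuins 280 and 282, 319 and 280, and 281 and 267. The 18 demethylases had 1807 and 1916, 1707 and 1722, and 1918 and 1916. All 60 genes together had 4441 and 4677, 4375 and 4146, and 4493 and 4433 CPM in knockdown and control embryos of the 3 experiments.

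Kat2a, also known as Gcn5, the catalytic acetyltransferase of SAGA and ATAC, had the smallest p of the 56 genes. Its lowest, median and highest levels were 4.55, 36.3 and 74.2 CPM in knockdown embryos, against 6.35, 46.3 and 117 CPM in control embryos. The ranges overlap, and 40 of the 55 knockdown embryos lay below the control median of their experiment. The log2 fold change was -0.48 (SE 0.14, edgeR adjusted p = 0.081) and did not pass. Over all embryos 50.2% of the Kat2a counts were on protein-coding transcripts, so this fold is not that of coding RNA alone. Its leading transcript, annotated as a processed transcript (ENSMUST00000153526.7), held 39.1% of the counts. Fitted alone, experiments 1, 2 and 3 gave -0.29, -0.27 and -0.70. Without experiment 3 the value was -0.28 (adjusted p = 0.777), whereas DESeq2 called it at an adjusted p of 0.039, as did edgeR with the library total and genes detected as terms (adjusted p = 0.0085). Of its 4 transcripts, Kat2a-203, annotated as a processed transcript (ENSMUST00000126299.1), had the lowest p, with 3.22 CPM on average in knockdown and 6.08 CPM in control embryos (log2 fold change -1.01, SE 0.34, edgeR adjusted p = 0.287).

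Hdac6 had 4.45, 52.4 and 166 CPM as its lowest, median and highest levels in knockdown embryos, against 17.2, 60.5 and 174 CPM in control embryos. Its log2 fold change was -0.45 (SE 0.15, edgeR adjusted p = 0.167). Experiments 1 and 3 alone gave -0.68 and -0.58, while experiment 2 gave 0.49. For Hdac6 the edgeR test for a response that differs between experiments had an unadjusted p of 0.016 and an adjusted p of 0.779. Without experiment 2, the one with the opposite sign, the fold change was -0.63 and passed (edgeR adjusted p = 0.021). Hdac6 did not pass without experiment 1 or without experiment 3. With the library total and genes detected as terms it passed (-0.53, adjusted p = 0.027). Over the 56 genes the test for a response that differs between experiments called 0, and over all genes it called 0.0149%. At an unadjusted p under 0.05 it had 2 of the 56 genes and 760 of all 13448.

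Setd1b had 3.96, 10.8 and 30.7 CPM as its lowest, median and highest levels in knockdown embryos, against 3.53, 8.66 and 32.2 CPM in control embryos, which gave 0.28 on the log2 scale (SE 0.11, edgeR adjusted p = 0.257). Kat6a, the MOZ acetyltransferase, had 0.16 (SE 0.077, edgeR adjusted p = 0.505) and Sirt5 had 0.21 (SE 0.10, edgeR adjusted p = 0.513). The genes with the smallest p in the other classes were Kdm5c at -0.23 (adjusted p = 0.557) and Kdm4c, which acts on methylated H3, at -0.25 (adjusted p = 0.596). In the Kmt class they were Kmt2a at 0.30 and Kmt2b at 0.12, with adjusted p of 0.788 and 0.899. Hdac1 had -0.16 (adjusted p = 0.738), Setd1a, the other catalytic subunit of COMPASS, had 0.13 (adjusted p = 0.832) and Sirt2 had -0.12 (adjusted p = 0.935). In experiment 1 alone Hdac1 had -0.48 (edgeR adjusted p = 0.057), against 0.0035 in experiment 2 and 0.049 in experiment 3. None passed the edgeR test.

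At the level of single transcripts, 159 of the 518 passed the filter. Of these, 0 were called by edgeR or limma-voom, against 0.309% of all 25255 transcripts called by edgeR. At an unadjusted p under 0.05 there were 11 of the 159, and the share of all transcripts at that threshold is not given. The authors' deposited table gives an adjusted p for 219 of the 518, and 0 of these lie under 0.05, the lowest being 0.101. With no filter on low counts edgeR called 23 of 499 transcripts of the enzymes, where 4.27% of all transcripts were called, so that share too was near the background.

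The enzymes work with partner proteins, and 7 lists of such genes and of related enzymes were set beside them. Among 45 tested partners of acetyltransferase complexes, 3 were called, all lower in knockdown embryos, where 0.468% of all genes were called lower. At an unadjusted p under 0.05 there were 7, where 9.50% of all genes lay, and the list had a median log2 fold change of 0.015. Jade1, a scaffold of the HBO1 complex, had a lowest, median and highest level of 13.6, 83.7 and 225 CPM in knockdown embryos, against 37.7, 115 and 279 CPM in control embryos. It fell by 0.62 on the log2 scale (SE 0.12, edgeR adjusted p = 0.00068), with 44 of 55 knockdown embryos below the control median of their experiment. Supt20, a structural subunit of SAGA, had 56.4, 145 and 233 CPM in knockdown embryos, against 105, 187 and 338 CPM in control embryos (log2 fold change -0.41, SE 0.091, edgeR adjusted p = 0.0064). Tada1, another SAGA subunit, had 2.58, 22.3 and 56.2 CPM in knockdown embryos, against 6.20, 33.3 and 73.6 CPM in control embryos (log2 fold change -0.60, SE 0.15, edgeR adjusted p = 0.022).

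The ranges of the arms overlap for all 3 genes, and each experiment fitted alone gave a negative value for each. Without experiment 1 none of the 3 passed (adjusted p of 0.165 for Jade1, 0.318 for Supt20 and 0.247 for Tada1), and without experiment 3 Supt20 and Tada1 did not (0.17 and 0.355). Without the embryos that stood apart all 3 passed (0.0015, 0.013 and 0.022). The other 6 lists, with 11, 18, 8, 8, 14 and 37 genes tested, held 0 called genes. At an unadjusted p under 0.05 there were 10, where 9.50% of all genes lay, so that count was near the background. In those lists the genes with the smallest p were the methyltransferase Nsd2 (log2 fold change 0.24, edgeR adjusted p = 0.090), Brms1l, a Sin3 complex subunit (0.39, adjusted p = 0.101), Bod1l (-0.55, adjusted p = 0.166), Jmjd1c (0.37, adjusted p = 0.254), the histone acetyltransferase Naa40 (-0.18, adjusted p = 0.602) and the arginine methyltransferase Prmt5 (-0.24, adjusted p = 0.655). Nsd2 passed without the embryos that stood apart (adjusted p = 0.037) and Brms1l without experiment 2 (0.022).

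**Figure D4:**
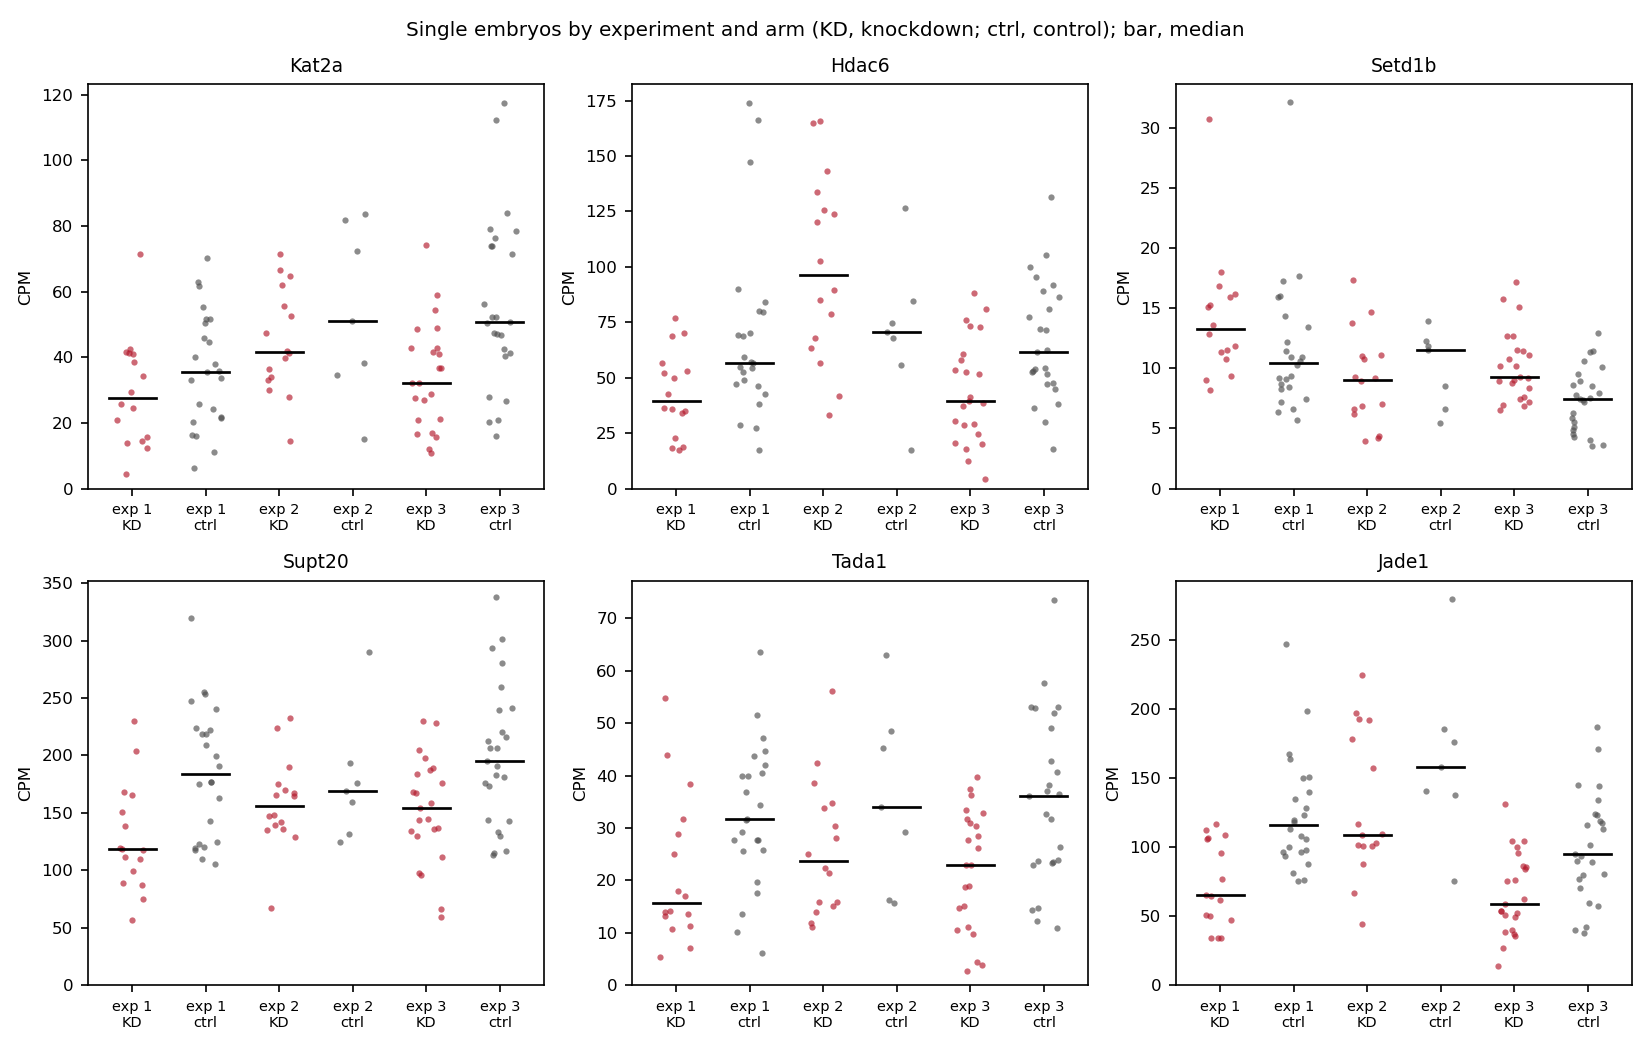
CPM in single embryos (vertical axis, linear from 0) by experiment, knockdown left of control, for Kat2a, Hdac6, Setd1b, Supt20, Tada1 and Jade1, with the median as a bar. The points of the arms overlap in every panel, and Hdac6 in experiment 2 has the higher median in the knockdown embryos.

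Nr5a2 is known to bind DNA as a monomer at sites built on AAGGNCA, so the promoters of the acetyltransferase and the deacetylase with the smallest p and of 1 SAGA subunit that fell, picked after their values were seen, are shown with any match to it. The sequences are the 250 bases before the annotated start, read 5′ to 3′ on the strand of the gene, from RefSeq (GRCm38.p6): Kat2a at chr11:100712468-100712717 on the minus strand, Hdac6 at chrX:7947890-7948139 on the minus strand, and Supt20 at chr3:54692565-54692814 on the plus strand. Capitals mark a match to AAGGNCA on either strand.
Kat2a: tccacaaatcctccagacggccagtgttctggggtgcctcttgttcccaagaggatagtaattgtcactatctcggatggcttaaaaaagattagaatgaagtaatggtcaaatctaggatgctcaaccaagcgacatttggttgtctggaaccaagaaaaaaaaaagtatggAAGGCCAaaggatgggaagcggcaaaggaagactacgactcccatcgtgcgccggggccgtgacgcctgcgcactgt
Hdac6: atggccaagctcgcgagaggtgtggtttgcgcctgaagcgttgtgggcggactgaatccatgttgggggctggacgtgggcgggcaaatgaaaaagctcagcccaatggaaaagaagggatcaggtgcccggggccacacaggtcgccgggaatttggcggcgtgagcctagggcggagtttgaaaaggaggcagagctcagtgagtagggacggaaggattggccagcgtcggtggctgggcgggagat
Supt20: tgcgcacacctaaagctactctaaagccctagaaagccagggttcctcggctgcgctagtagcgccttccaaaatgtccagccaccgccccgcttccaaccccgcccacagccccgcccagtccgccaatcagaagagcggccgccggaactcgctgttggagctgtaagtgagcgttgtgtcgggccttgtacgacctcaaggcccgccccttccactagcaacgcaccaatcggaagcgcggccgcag

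The window searched ran from 250 bases before to 50 after the start. Kat2a held 1 match, 77 bases before the start on the strand of the gene. The windows of Hdac6, Supt20 and Jade1 held 0 matches. A window was at hand for 48 of the 60 genes, and 10 of them (20.8%) had a match, beside 22.7% of all 27025 genes with one. The longer word TCAAGGNCA, which contains the first, was found in Sirt3 alone, beside 1.86% of all genes. A match of these letters is a description of the window and not a binding site.

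The third comparison was between the 3 experiments, which the labels number without further detail. With the arm as a term, 23 of the 56 genes (41.1%) differed between experiments, where 32.0% of all genes did, and in control embryos alone 13 did (23.2%), where 14.8% of all genes did. Without the embryos that stood apart there were 22, where 31.1% of all genes passed. In the Kmt class 5 of 8 genes passed both ways, and they were Kmt2a, Kmt2b, Kmt2c, Kmt2d and Kmt2e, the whole MLL family in the list. Of the other classes, 3 of 8 tested Hdac, 2 of 8 Kat, 6 of 18 Kdm, 4 of 7 Setd and 3 of 7 Sirt genes passed over all embryos.

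Kmt2d differed in direction from the other MLL genes, which were all lower in both later experiments than in experiment 1. Kmt2d, an enhancer methyltransferase, had a median of 371 CPM in knockdown and 333 CPM in control embryos of experiment 2, against 201 and 193 CPM in experiment 1 and 183 and 234 CPM in experiment 3. Its log2 difference of experiment 2 from experiment 1 was 0.83 (edgeR adjusted p over the experiments 5.2e-09). Its paralogue Kmt2c was lower in experiments 2 and 3 than in experiment 1, by log2 differences of -0.61 and -0.50 (adjusted p = 7.8e-07). Kmt2e, an MLL-family protein, differed by -1.04 and -0.50 (adjusted p = 0.00012), and Kmt2a and Kmt2b were also lower in both later experiments (-0.56 and -0.88, adjusted p = 0.010, and -0.42 and -0.61, adjusted p = 0.0015).

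Among the other classes Kdm7a, a demethylase with a PHD finger, had the smallest p, with log2 differences of -0.78 in experiment 2 and -0.16 in experiment 3 from experiment 1 (adjusted p = 4.6e-09). Kat6a was lower in both, by -0.62 and -0.52 (adjusted p = 2.7e-08), and Kdm5d in experiment 2, by -1.0 (adjusted p = 4.4e-07). Kdm1b, known in the mouse as the demethylase needed in oocytes to set up maternal imprints, was higher in experiment 3, by 0.76 (adjusted p = 0.00038), and Kdm4a, which acts on methylated H3, in experiment 2, by 0.85 (adjusted p = 0.0018). Hdac6 and Sirt6, a chromatin-bound deacetylase, were higher in experiment 2 by 0.84 and 0.64 (adjusted p = 0.00032 and 0.00073). In experiment 3 Sirt6 was also higher, by 0.43, while Hdac6 differed by -0.039. Setd1b, Setd5 and Sirt1 were lower in experiment 2 by -0.50, -0.63 and -0.72 (adjusted p = 0.00018, 0.0010 and 0.0054). They were also lower in experiment 3, by -0.56, -0.57 and -0.34. The Hdac6 and Sirt6 differences did not pass in control embryos alone (adjusted p = 0.956 and 0.111), nor did that of Kdm4a (0.322). Kat2a, Sirt7 and the class IIa gene Hdac5 were higher in experiment 2 by 0.65, 0.67 and 0.75 (adjusted p = 0.011, 0.012 and 0.0087), again not in control embryos alone (0.060, 0.640 and 0.259). Their differences in experiment 3 were 0.45, 0.14 and -0.30.

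The fourth comparison followed the enzymes along the level of 2-cell stage transcripts. Each embryo was given a 2-cell score, the mean log2 CPM of 23 transcripts of that stage (Zscan4, Zfp352, Tdpoz, Usp17l and related genes), which include none of the 60 genes. The slope on the score, in SD units within each of the 6 groups, was tested with edgeR. Of the 56 genes 32 passed (57.1%), where 58.8% of all genes did, so the share was near the background. By direction, 24 fell with the score, where 29.6% of all genes did, and 8 rose, where 29.1% did. The median slope was -0.10 per SD, beside 0.025 over all genes. Without the embryos that stood apart 39 passed, with 30 falling, where 32.4% of all genes did, and 9 rising, where 36.8% did.

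With the library total and the number of genes detected as added terms, 13 of the 56 passed (23.2%), where 32.1% of all genes did. Of these, 12 fell, where 17.9% of all genes did, and 1 rose, where 14.2% did. The terms were added together, and the part of each was not tested. Within groups the 2-cell score had a correlation of 0.42 with genes detected and of -0.084 with the log2 library total. Experiment 1 alone gave 15 falling and 4 rising genes, where 19.5% of all genes fell and 20.3% rose. Experiment 2 gave 6 and 1 of 57 tested, where 11.6% fell and 11.0% rose, and experiment 3 gave 13 and 2, where 18.3% fell and 12.6% rose.

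The steepest slope of the 56 genes was that of Kat2b. It ranged from 1.83 to 135 CPM over knockdown embryos and from 1.23 to 89.5 CPM over control embryos, and its slope was -0.84 per SD of the score (SE 0.099, edgeR adjusted p = 3.0e-12). The slope was -0.86, -0.80 and -0.84 in experiments 1, 2 and 3, and -0.80 with the depth terms (adjusted p = 6.0e-08). Kat14 had a slope of -0.42 (SE 0.048, adjusted p = 1.2e-12), with -0.41, -0.44 and -0.40 in the 3 experiments and -0.33 with the depth terms. Kat6b had a slope of -0.32 (SE 0.044, adjusted p = 7.9e-10). Kat2a, Kat7 and Kat8 also fell, but not with the depth terms, and Kat5 and Kat6a did not pass. The first exon of Kat14 overlaps the gene Pet117 in GENCODE M21, and 9.48% of the 31-base words of its leading transcript occur in another gene, as do 15.4% of those of Kat2b.

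All 3 Kmt5 genes, the methyltransferases of histone H4, fell with the score and passed with the depth terms as well. Kmt5b, at 8.75, 88.2 and 201 CPM (lowest, median and highest) in knockdown and 24.2, 101 and 169 CPM in control embryos, had a slope of -0.50 (SE 0.065, edgeR adjusted p = 1.6e-10). Kmt5a had -0.21 (adjusted p = 2.9e-06) and Kmt5c -0.48 (adjusted p = 3.8e-05). Of the Kmt2 genes only Kmt2c passed, with -0.13 (adjusted p = 0.0055). The demethylases gave 9 falling genes, of which Kdm8 was steepest at -0.69 (adjusted p = 1.3e-07) and Kdm2b, a Polycomb-linked CpG-island binder, had -0.33 (adjusted p = 5.2e-06). Kdm1a, Kdm2b, Kdm7a and Kdm8 passed with the depth terms. In the remaining classes Hdac8 had -0.52, Hdac6 -0.25, Setd2 -0.23, Sirt6 -0.25 and Sirt7 -0.29, and of these Sirt6 alone passed with the depth terms (-0.22, adjusted p = 0.0033).

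Those that rose were Hdac2, Hdac9, Kdm5d, Kdm6b, Setd1b, Setd4, Sirt2 and Sirt3. Hdac9 had a slope of 0.42 (SE 0.079, edgeR adjusted p = 3.8e-06) and was the only one that passed with the depth terms, with 0.37 (adjusted p = 0.0016). Hdac2 had 0.18 (adjusted p = 0.0020), Kdm6b, an eraser of a Polycomb mark, had 0.18 (adjusted p = 0.0018), and the mitochondrial deacetylase Sirt3 had 0.34 (adjusted p = 0.0014). Hdac1, which had the highest median level per length of the deacetylase genes, had a slope of -0.054 that did not pass (adjusted p = 0.396).

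**Figure D5:**
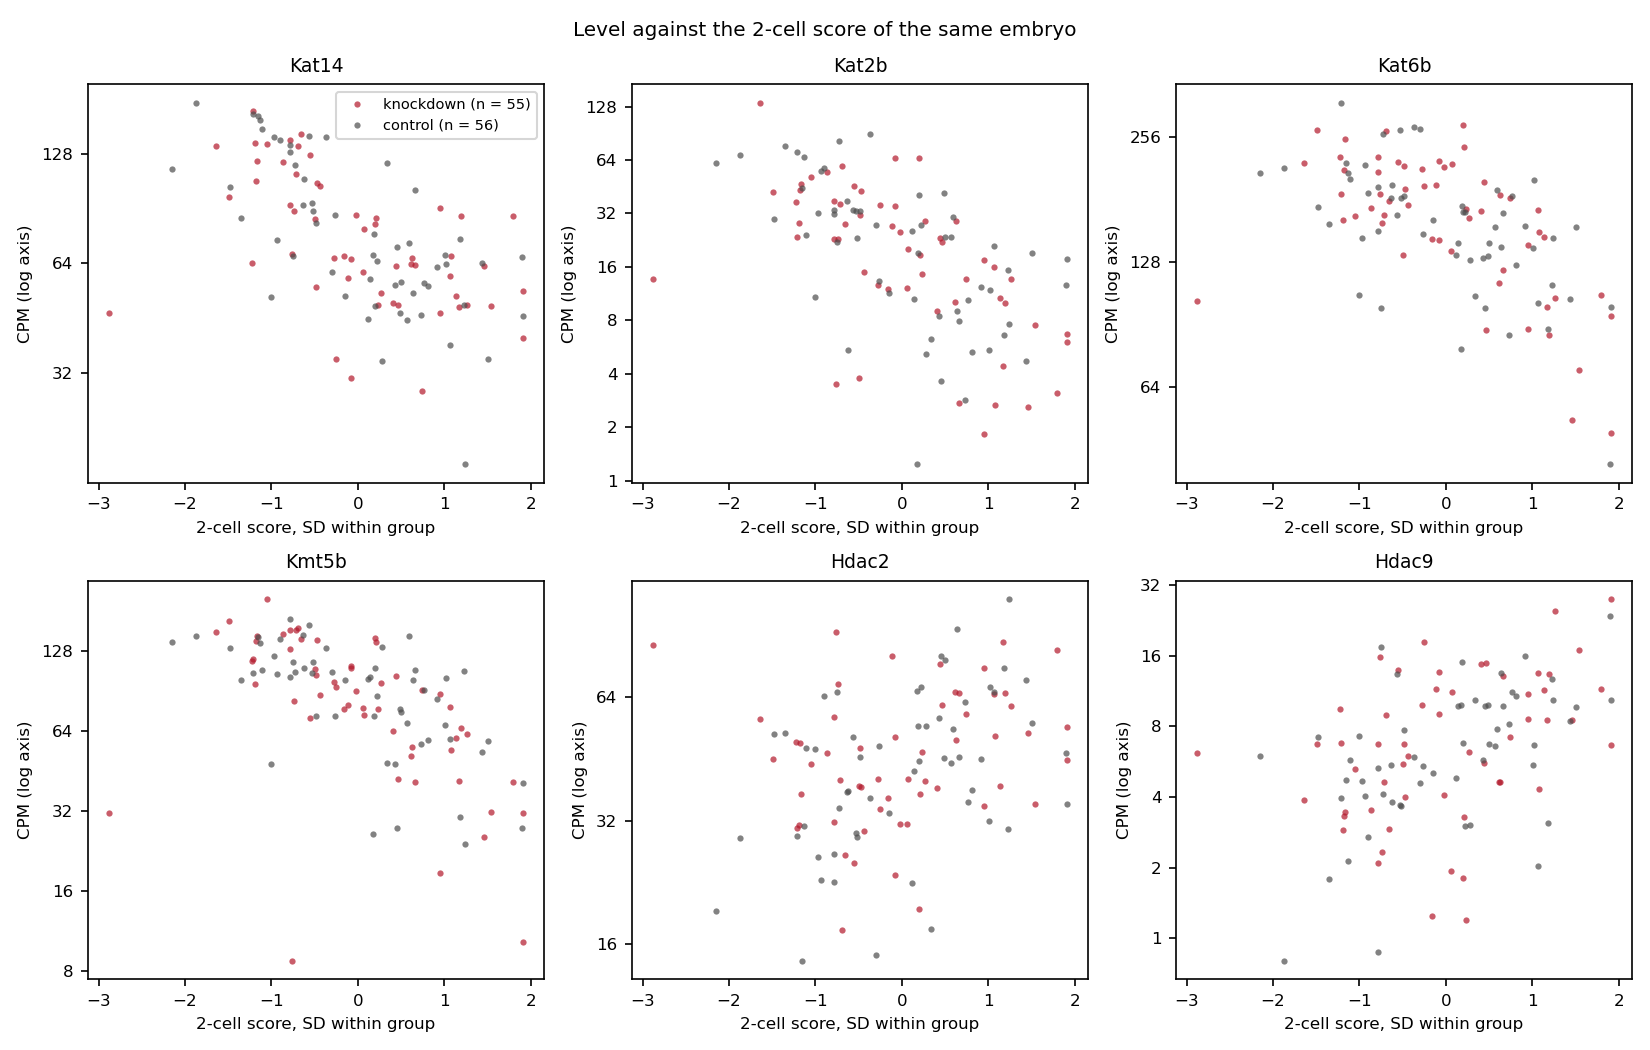
CPM of 6 genes (vertical axis, log) against the 2-cell score of the same embryo in SD within its group (horizontal axis), knockdown (n = 55) and control (n = 56). Kat14, Kat2b, Kat6b and Kmt5b are lower and Hdac2 and Hdac9 higher toward high scores, with both arms intermixed.

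The 60 genes also differed in how much they varied between embryos. The coefficient of variation from the edgeR fit, beyond counting noise, ran from 0.265 for Kdm7a to 0.810 for Kat2b. Only 6 of the 56 (10.7%) lay above the trend for genes of the same abundance, where 34.9% of all genes did. They were Hdac6, Kat2b, Kdm1b, Kmt2a, Kmt5b and Sirt7. The median ratio to the trend was 0.768 for the 56 genes and 0.891 for all genes.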

How the data were processed

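RNA of single 2-cell embryos was amplified with SmartSeq2 from oligo dT primers, per the labels' protocols, without molecular identifiers or strand. The deposited values are estimated counts per transcript, made by the authors with Trim Galore 0.6.2 and kallisto 0.46.1, per the submitters' processing notes. Which annotation release the index used is not given in the sources. The authors' deposited table holds a log2 fold change and an adjusted p-value per transcript from DESeq2 1.32.0, per the submitters' processing notes. It was used to pair transcripts with genes and for the adjusted p-values quoted from it. One control embryo of experiment 2 named in the design text was not analysed here.

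Estimated counts of 119353 transcripts were summed to 36134 genes and rounded, and 1726 transcripts without a gene (median 0.567% of counts) were left out. Tests used edgeR 4.0.16 in R 4.3.3 (quasi-likelihood F-test, TMM, filterByExpr by arm, experiment and arm as factors, 107 residual degrees of freedom), with Benjamini-Hochberg adjustment over all genes and a threshold of 0.05. Experiment differences, arm-by-experiment terms and the slope on the 2-cell score were fitted in the same way. DESeq2 1.42.0, limma 3.58.1 (voom), other filters, scalings, terms and left-out experiments were the alternatives. Levels per length used transcript lengths of GENCODE M21. Intervals are at 95%. Class sums are descriptions with no test. Without molecular identifiers, counts are not independent molecules.

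The genes, lists and tests were chosen with earlier results of these data known. Named genes were, per class, the 3 highest and the lowest measured by level per length, the 2 with the smallest p for knockdown, and up to 2 called genes in each direction for experiment and score. Of each partner list, the called genes were named, or otherwise the one with the smallest p. Kat6b and Kmt5c slopes, the variation between embryos and the promoters printed were chosen after their values were seen.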

Additional observations from a re-analysis of the deposited data

Results flagged for a closer look

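The 7 control embryos of experiment 2 were the one group small enough to be searched for single embryos far from the rest (Dixon's ratio, critical value 0.568). Of 56 genes 8 had such an embryo. About 2.8 would arise at 1 in 20 if the genes were independent and their values normal, which was not tested. The share over all genes was not counted, so the 8 cannot be read as a trait of the enzymes. Embryo 2 held 6 of the 8.

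In embryo 2 Kat5, the catalytic subunit of the NuA4 complex, had 40.2 CPM, with the others between 19.0 and 25.7. Kdm6b had 77.1 CPM, with the others between 23.6 and 41.6. Setd6 had 29.1 CPM, with the others between 5.71 and 15.4, and Sirt2 had 17.2 CPM, with the others between 3.34 and 6.42. The same embryo was lowest for Kdm3a, a demethylase of methylated H3, with 30.8 CPM where the others had 74.2 to 103, and for Sirt7, with 26.7 CPM where the others had 106 to 158. In embryo 6 Kat7 had 244 CPM, with the others between 152 and 188, and Kmt5c had 26.5 CPM, with the others between 4.03 and 10.3. What sets these embryos apart was not tested.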

How the results depend on the processing

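The number of the 56 genes called in knockdown was 1 with the 2-cell score as a term, with DESeq2, with no filter and without experiment 2, and 2 with the library total and genes detected as terms, against 0 in the other fits. Genes differing between experiments numbered 13 in control embryos alone, where 14.8% of all genes did, and 10, 13 and 15 without experiment 1, 2 and 3. For the knockdown fits that called 1 or 2 genes, and for the fits without an experiment, the share over all genes is not given. Those counts cannot be set against a background. Genes changing with the 2-cell score numbered 19 (15 falling, 4 rising), 7 (6 and 1) and 15 (13 and 2) in experiments 1, 2 and 3 alone, a choice made after seeing the data, and 13 (12 and 1) with the depth terms. With no filter 23 of 499 transcripts were called in knockdown, where 4.27% of all transcripts were, against 0 of 159, and the cause was not tested. Among the genes named for their knockdown p, reversed log2 fold changes were Kmt2a -0.19 and Kmt2b -0.015 in experiment 1 alone, Hdac1 0.0035, Hdac6 0.49 and Setd1b -0.15 in experiment 2 alone, Hdac1 0.049 and Sirt2 0.11 in experiment 3 alone, and Hdac1 0.029 without experiment 1. The slope of Sirt2 was -0.015 in experiment 2 alone. The cause of these was not tested. Leaving out single embryos in turn was not run, since the groups hold more than 5.

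With the replicate number as a block, 0 genes and 0 transcripts of the enzymes were called in knockdown, and Supt20 and Tada1 did not pass (adjusted p = 0.108 and 0.063). The numbers do not pair the embryos: over 46 same-numbered pairs the correlation of deviations ran from -0.40 to 0.42 (median 0.051), with 16 over 0.1.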
